A study of Mus musculus with 12 samples.

Results

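The carbonic anhydrases of the mouse growth plate were examined as a family of 7 genes, Car2, Car3, Car4, Car8, Car9, Car12 and Car13. The members were chosen by name, as probe sets annotated with the symbol of 1 member alone, and they were 7 of the 18193 genes that had such a probe set on the array. They were read by 17 probe sets, and the probe set with the highest mean log2 signal stood for each gene. Carbonic anhydrases are zinc enzymes that turn carbon dioxide and water into bicarbonate and a proton, and back. The cytosolic members supply protons and bicarbonate to transporters inside the cell, whereas the membrane-bound members act on the outer face of the cell and set the pH there. In bone, CAR2 is known for feeding the proton pump of osteoclasts, the cells that resorb mineralized cartilage and bone, and in many tissues Car9 is known as a gene induced by low oxygen.

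Tibiae were dissected from E15.5 (embryonic day 15.5) embryos of CD1 mice and cut by hand into zones, and RNA of each zone was hybridised to Affymetrix whole-genome expression arrays. Resting and proliferating cartilage made up zone I, zone II was dominated by chondrocytes entering or in hypertrophy, and zone III took in late hypertrophic cartilage together with the mineralized end of the shaft. Each zone had 4 arrays, lettered A to D, which per the methods came from separate litters with the segments of a litter pooled. The embryos were untreated and of the same strain and age, and the groups differed in position along the bone, so that later zones stood for later stages of maturation. The segments were whole tissue and not sorted cells. In such samples fewer cells of a type and less RNA per cell cannot be told apart. Per the methods 4 litters were used, so that the 12 arrays do not stand for 12 independent litters. The labels do not say whether a letter marks the same litter in every zone, and the main fit did not pair arrays. Its p-values therefore set each difference against the spread between arrays of the same zone.

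The arrays were deposited as linear signals scaled to a trimmed mean of about 150, with medians between 32.4 and 43.3. Their number, 4 in each zone, limits the precision. At marker level, 9 of 9 prehypertrophic and hypertrophic chondrocyte markers were higher in zone II than in zone I. Early chondrocyte markers were lower in zone III than in zone II in 11 of 11 cases. In zone II against zone I, however, 4 of these 11 early markers were higher and 0 lower. Their summed signal was 26959 to 32225 in zone I and 36837 to 40460 in zone II. In zone III against zone II, 2 of the 9 hypertrophic markers were higher and 4 lower. Zone III also held more signal from other cell types than zone II, with 10 of 10 macrophage markers tested and 12 of 12 endothelial markers higher. Of all genes tested, 30.8% were higher in that comparison. Against zone I, 5 of the 10 macrophage markers were higher, 1 was lower and 4 did not pass. Of the 12 endothelial markers 10 were higher there, where 21.6% of all genes were higher and 21.7% lower. The endothelial Pecam1 (1.3, limma adjusted p = 0.0524) and Eng (0.83, adjusted p = 0.0867) did not pass against zone I. Of the hypertrophic markers, Col10a1 (-0.13), Mef2c (-0.20) and Ibsp (0.02) did not pass between zones III and II, nor Runx3 (-0.32) between zones III and I. The 3′ to 5′ ratio of Gapdh, a sign of RNA quality, was 1.98 to 2.28 in zone III and 1.25 to 1.76 in zones I and II, and the corresponding ratio of actin was 1.70 to 2.02 in zone III and 2.09 to 3.23 in zones I and II. The part of these ratios in the differences between zone III and the other zones was not tested.

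The family divided by zone. Car2 and Car3, both cytosolic, had their highest signals in zone III, and the membrane-bound Car9 had its highest signal in zone I. Car12, also membrane-bound, was high in zones I and II and low in zone III, and Car8, a relative without enzyme activity, was highest in zone II. Car13 passed in no comparison, and Car4 stayed below a mean signal of 50 in every zone, the minimum set for testing. In zone II against zone I, 3 of the 6 tested members rose and 1 fell, where 16% and 25.4% of all 11808 genes tested rose and fell and 41.4% changed in either direction (limma, Benjamini-Hochberg adjusted p under 0.05). In zone III against zone II, 2 members rose and 3 fell, against 30.8% and 22.7% of all genes and 53.6% in either direction. In zone III against zone I, 2 members rose and 2 fell, against 21.6% and 21.7% of all genes and 43.3% in either direction. The median log2 difference of the 6 members was 0.46, -0.28 and 0.32 in these comparisons in turn, where the median over all genes was -0.09, 0.08 and -0.01. The members were chosen with earlier results of these data known, so that their counts beside all genes are a description and no test.

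**Figure D1:**
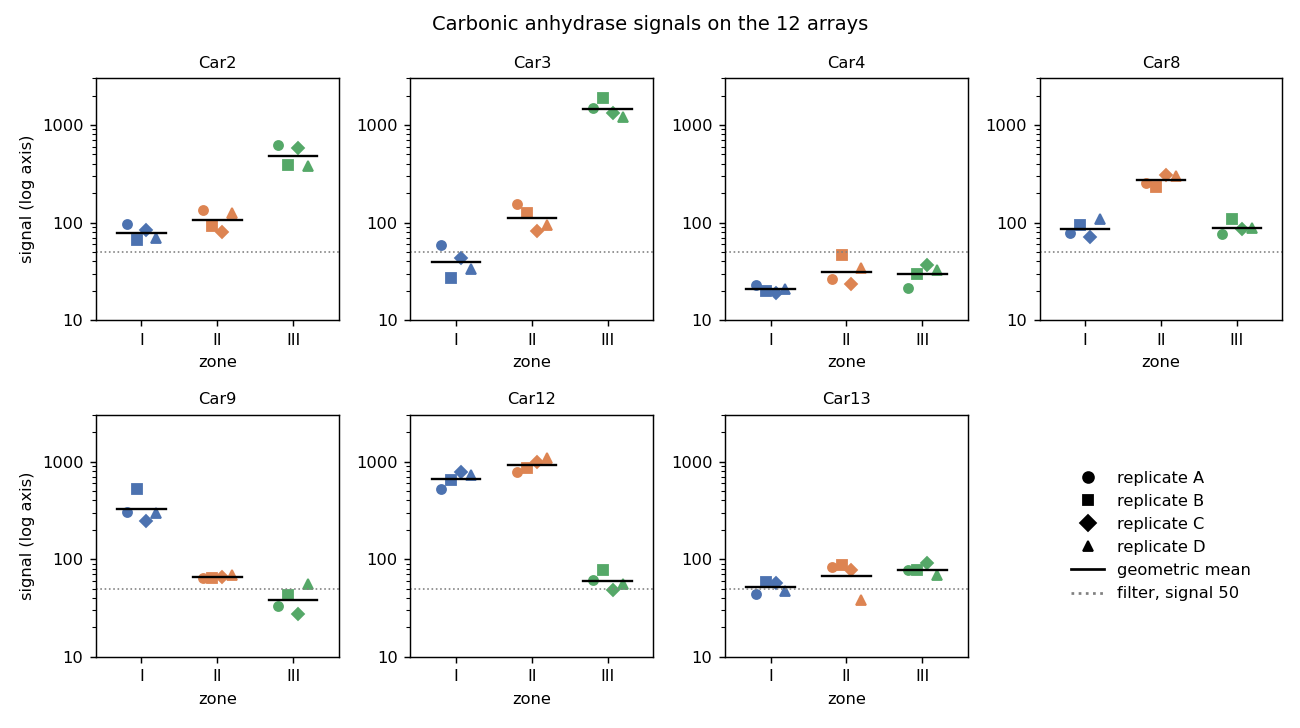
Signal (log axis) of the probe set standing for each of the 7 carbonic anhydrases in zones I, II and III, with a symbol for each of the 4 replicate arrays, a bar at the geometric mean and a dotted line at the minimum signal of 50. Car2 and Car3 are highest in zone III, Car8 in zone II and Car9 in zone I, Car12 is low in zone III, and all 12 Car4 points lie below the dotted line.

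**Figure D2:**
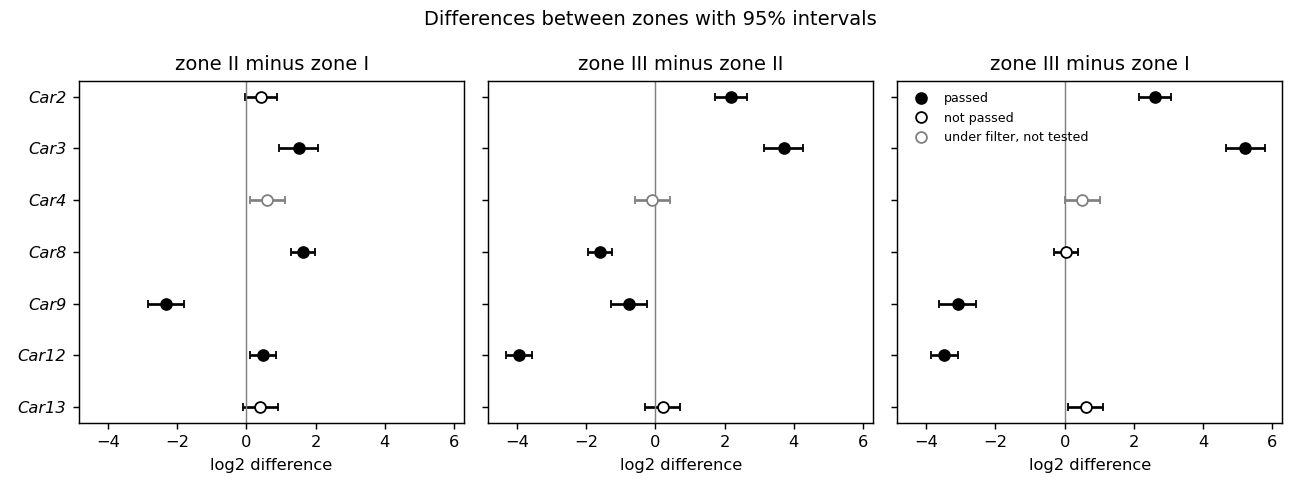
Log2 difference between zones for each carbonic anhydrase with its 95% interval, filled where the difference passed at an adjusted p under 0.05, open where it did not and grey where the gene was under the filter. Car3 in zone III minus zone I lies farthest to the right at 5.23, and Car12 in zone III minus zone II farthest to the left at -3.95.

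Promoter windows of RefSeq (build GRCm38.p6, 250 bases before to 50 after the start of the gene) were matched for 3 of the 7 members, Car4, Car9 and Car12. Those of Car9 and Car12 are shown because both genes code for membrane-bound enzymes that are known from human cells to respond to low oxygen, while Car9 was highest in zone I and Car12 was high in zones I and II. The windows were searched on both strands for ACGTG and GCGTG, the core letters bound by hypoxia-inducible factors, and a match is printed in capitals (CACGT is ACGTG read on the other strand). The windows are chr4:43506776-43507075 for Car9 and chr9:66713436-66713735 for Car12, both on the plus strand.
Car9: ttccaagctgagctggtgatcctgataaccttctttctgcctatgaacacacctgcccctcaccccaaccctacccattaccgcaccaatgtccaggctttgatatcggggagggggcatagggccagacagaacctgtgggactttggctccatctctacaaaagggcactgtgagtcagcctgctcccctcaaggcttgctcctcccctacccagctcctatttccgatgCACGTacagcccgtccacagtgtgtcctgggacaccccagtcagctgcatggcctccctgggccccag
Car12: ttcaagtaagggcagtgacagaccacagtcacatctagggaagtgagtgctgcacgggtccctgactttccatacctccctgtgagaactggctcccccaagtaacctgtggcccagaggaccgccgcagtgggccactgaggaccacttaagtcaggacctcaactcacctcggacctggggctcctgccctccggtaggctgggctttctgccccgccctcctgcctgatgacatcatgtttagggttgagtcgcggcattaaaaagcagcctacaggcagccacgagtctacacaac
The Car9 window held 1 match to ACGTG, with its first base at position -18 from the start, and none to GCGTG. The Car12 window held 0 matches to either motif. The window of Car4, a gene that was not tested, held 1 match to ACGTG, with its first base at position 3, and 0 to GCGTG. Of 32851 RefSeq windows of the same length, 19.6% held ACGTG, 32.4% held GCGTG and 43.8% held at least 1 of them.

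Car2, the high-activity cytosolic enzyme, was read by its only probe set, 1448752_at. Its signals on arrays A to D were 95.5, 66.5, 84.0 and 70.0 in zone I, 133.6, 93.0, 79.8 and 124.4 in zone II, and 620.4, 386.1, 583.1 and 381.2 in zone III. Every zone III array lay above every array of zones I and II, whereas zones I and II overlapped. Car2 averaged 493 ± 127 in zone III and 108 ± 25.4 in zone II (SD, n = 4 each), a 4.56-fold rise as a ratio of geometric means, as are all folds given (log2 difference 2.19 ± 0.22 SE, limma adjusted p = 4.18e-06). Against zone I, at 79.0 ± 13.3, the zone III level was 6.15-fold higher (log2 difference 2.62 ± 0.22, adjusted p = 1.29e-06). The difference between zones II and I was 0.43 with a 95% interval of -0.04 to 0.90 and did not pass (limma adjusted p = 0.138). Arrays were grouped into 3 fluidics runs by their recorded hybridization date, and each run held arrays of all zones. Within the 3 runs, zone III exceeded zone II by 1.92 to 2.22 on the log2 scale.

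Car2 is known in osteoclasts and in red blood cells, and the markers of those cells were read beside it. Of 10 osteoclast markers, 9 were higher in zone III than in zone II and 0 were lower, where 30.8% and 22.7% of all genes tested were. The summed signal of the 10 was 969 to 1106 in zone I, 889 to 1967 in zone II and 12588 to 14937 in zone III. Acp5, the tartrate-resistant acid phosphatase, averaged 112 ± 8.63, 166 ± 51.2 and 2362 ± 330 in zones I, II and III. Tnfrsf11a, the receptor that osteoclast precursors use for RANK ligand, was the marker that did not pass, at 67.0 in zone III and 58.7 in zone II (0.19, limma adjusted p = 0.425), nor did it against zone I (0.20, adjusted p = 0.436). None of these 10 markers was at 0. The summed signal of 15 erythroid markers was 1303 to 3758 in zone I, 832 to 4066 in zone II and 1993 to 4306 in zone III, so that the zones overlapped. The 7 erythroid markers tested had a median log2 difference of 1.26 in zone III against zone II, where that of all genes was 0.08. Of the 7, Alas2 was higher in zone III (1.34, limma adjusted p = 0.0197) and Rhd was lower (-1.01, adjusted p = 0.000103), and the others did not pass. The embryonic globin gene Hbb-y averaged 1818 ± 941 in zone III and 1023 ± 1327 in zone II (SD, n = 4 each, 1.46, limma adjusted p = 0.0881), and Hbb-b2 averaged 207 ± 83.4 and 108 ± 106 in these zones (1.26, adjusted p = 0.0616). The red cell anion exchanger Slc4a1 differed by 1.31 (adjusted p = 0.0791), Klf1 by -0.25 and Epor by 0.04. On its own probe set the alpha-globin gene Hba-a1 stayed below the filter, at means of 35.2, 32.2 and 24.1 in zones I, II and III. Probe sets annotated with several genes were not read, so this value does not give the level of alpha-globin RNA. Of 19 erythroid markers listed 15 were measured, and Hbb-b1 had no probe set of its own. The part of osteoclast or erythroid RNA in the Car2 difference was not tested.

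Car3, a cytosolic enzyme of low activity that is abundant in skeletal muscle and fat of adult animals, had the largest rise of the 7 members. On probe set 1449434_at the arrays A to D read 59.2, 27.0, 43.4 and 33.2 in zone I, 156.4, 125.1, 82.8 and 95.2 in zone II, and 1489, 1908, 1327 and 1199 in zone III. No array of a later zone overlapped with an earlier zone. Car3 averaged 115 ± 32.9 in zone II and 40.7 ± 14.1 in zone I (SD, n = 4 each), a 2.86-fold rise (log2 difference 1.52 ± 0.26 SE, limma adjusted p = 0.000663). It averaged 1481 ± 309 in zone III, 13.1-fold above zone II (log2 difference 3.71 ± 0.26, adjusted p = 2.69e-07) and 37.4-fold above zone I (5.23 ± 0.26, adjusted p = 2.03e-08). The zone I mean lay under the filter of 50, and the log2 difference of zone III from zone I was 4.73 with 16 added to every signal and 4.09 with the median of the Car3 probe sets, the lowest of 24 alternative analyses, whose highest was 5.43. In zone III against zone I, 18 of the 11808 genes tested had a higher log2 difference than Car3. Within the 3 fluidics runs the difference of zone III from zone II was 3.25 to 4.23.

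The second Car3 probe set that passed the filter, 1460256_at, gave the same order with smaller differences. It read 132.0, 244.6, 145.7 and 167.8 in zone III, against 40.1, 47.0, 36.4 and 41.1 in zone II (log2 difference 2.03, limma adjusted p = 0.0023), with no overlap. Against zone I its rise was 7.74-fold (2.95, adjusted p = 0.000205). Its zone I arrays read 27.9, 25.3, 6.76 and 46.1, and the difference of zone II from zone I, 0.92, did not pass (adjusted p = 0.128). The remaining Car3 probe sets, 1430584_s_at and 1453588_at, stayed below the filter, with log2 differences of 1.62 and 1.82 between zone III and zone II.

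Muscle and fat were the tissues to set beside Car3. The summed signal of 22 skeletal muscle markers was 754 to 2743 in zone I, 1159 to 1520 in zone II and 692 to 1220 in zone III. In zone III against zone II, 1 of the 15 muscle markers tested was higher and 2 were lower, where 30.8% and 22.7% of all genes tested were. The log2 differences of the 15 ran from -2.01 to 2.29, with a median of 0.11. In zone III against zone I 1 was higher and 3 were lower, with differences from -2.03 to 2.49. Ckm, the muscle creatine kinase, averaged 46.2 ± 2.33 in zone III and 50.3 ± 34.8 in zone II. Among 6 adipocyte markers, Fabp4, a fatty acid carrier that macrophages and endothelial cells also make, averaged 307 ± 189, 73.4 ± 84.6 and 1065 ± 196 in zones I, II and III, and Retn did not pass in any comparison. Pparg, the nuclear receptor that drives fat cell differentiation, averaged 3.78, 3.53 and 34.2 in zones I, II and III and was under the filter, so that it was not tested. Adipoq, Cidec and Lep had mean signals of 1.03, 2.48 and 3.27 in zone III. The sum of the 6 was 210 to 679 in zone I, 106 to 254 in zone II and 1028 to 1386 in zone III. Of 10 osteoblast markers, 7 were higher and 1 lower in zone III than in zone II, where 30.8% and 22.7% of all genes were. They summed to 4746 to 6367 in zone I, 10063 to 13387 in zone II and 16530 to 19108 in zone III. Ibsp (0.02) and Col1a2 (0.24) did not pass, nor did Col1a2 against zone I (-0.05), and between zones II and I Mepe (0.31), Col1a1 (-0.54) and Col1a2 (-0.29) did not. The part of muscle, adipocyte or osteoblast RNA in the Car3 difference was not tested.

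Car13, the third cytosolic member measured, stayed close to the filter in all zones. Its probe set 1421307_at read 44.5, 58.4, 56.8 and 47.6 in zone I, 82.5, 87.5, 78.2 and 37.8 in zone II, and 77.3, 78.3, 90.8 and 68.8 in zone III. Array D of zone II lay below all the arrays of zone I, while its 3 companions lay above them, and all zone III arrays lay above zone I. No comparison passed. The log2 difference was 0.40 in zone II against zone I (95% interval -0.11 to 0.91, limma adjusted p = 0.201), 0.21 in zone III against zone II (-0.30 to 0.71, adjusted p = 0.494) and 0.61 in zone III against zone I (0.10 to 1.11, adjusted p = 0.0553). Without array D of zone II, the difference of zone II from zone I was 0.68 and passed (limma adjusted p = 0.00299), as did that of zone III from zone I (adjusted p = 0.0029), which passed in 8 of 23 alternative analyses in all. With a replicate block, which pairs arrays of the same letter, the difference of zone III from zone I was 0.61 and passed (adjusted p = 0.0294). The other Car13 probe set that passed the filter, 1421308_at, read 57.9, 70.9, 59.1 and 54.3 in zone III, against 49.0, 23.8, 34.5 and 23.5 in zone II, and on it zone III was higher than zone II (0.95, adjusted p = 0.00271) and than zone I (0.64, adjusted p = 0.0306). Its zone I arrays read 40.3, 36.6, 33.2 and 45.3. The probe sets of Car13 thus disagreed on which comparisons passed, and the third, 1439620_at, stayed below the filter at means of 11.0, 7.43 and 17.4 in zones I, II and III.

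Car2, Car3 and Car13 lie side by side with Car1 on mouse chromosome 3, where the order of protein-coding genes in RefSeq (GRCm38.p6) is Car13, Car1, Car3 and Car2. Car1, the red cell isoform, stayed below the filter, with mean signals of 13.4, 12.7 and 12.8 in zones I, II and III. The log2 signals of Car2 and Car3 correlated with r = 0.97 over the 12 arrays, which share the zones, and those of Car2 and Car13 with r = 0.48.

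Car9, a transmembrane enzyme with its active site outside the cell, was highest in zone I. Its only probe set, 1427013_at, read 303.5, 524.5, 246.4 and 299.95 in zone I, 64.2, 64.9, 65.9 and 68.2 in zone II, and 33.4, 42.9, 27.6 and 55.9 in zone III. The zones did not overlap, and array B of zone I stood highest. Car9 averaged 65.8 ± 1.77 in zone II and 344 ± 123 in zone I (SD, n = 4 each), a log2 difference of -2.32 ± 0.24 SE (limma adjusted p = 1.43e-05), or 5.0-fold lower in zone II. It averaged 39.9 ± 12.3 in zone III, below zone I by 8.54-fold (log2 difference -3.09 ± 0.24, adjusted p = 7.98e-07). The step between zones III and II was smaller, at -0.77 ± 0.24 (adjusted p = 0.0178). That call was lost without array C of zone III (-0.61, limma adjusted p = 0.0585) and when arrays were centred on ribosomal protein genes (-0.39, adjusted p = 0.239). Within the 3 fluidics runs zone II minus zone I was -2.64 to -1.91, and zone III minus zone II was -0.94 to -0.61.

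Car12, the other transmembrane enzyme facing outward, was high in zones I and II. Which cells of these segments gave the signal was not tested. Probe set 1428485_at read 521.7, 653.3, 776.3 and 734.7 in zone I, 777.3, 868.5, 989.1 and 1102 in zone II, and 61.6, 76.8, 48.0 and 56.3 in zone III. The zone III arrays all lay far below the rest, and the lowest zone II array was just above the highest zone I array. Car12 averaged 60.7 ± 12.2 in zone III and 934 ± 142 in zone II (SD, n = 4 each), 15.5-fold lower in zone III (log2 difference -3.95 ± 0.17 SE, limma adjusted p = 1.65e-08). In that comparison 19 of the 11808 genes tested had a lower log2 difference than Car12. Against zone I, at 671 ± 112, zone III was 11.1-fold lower (-3.47 ± 0.17, adjusted p = 2.17e-08). Within the 3 fluidics runs the difference of zone III from zone II was -4.41 to -3.59.

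The rise of Car12 in zone II over zone I was 0.48 ± 0.17 and passed narrowly (limma adjusted p = 0.0474). It did not pass in 16 of 24 alternative analyses, where its adjusted p reached 0.365 and its value 0.23 with centring on ribosomal protein genes. Those 16 included leaving out array A, B or D of zone I, array B, C or D of zone II, or array A or D of zone III, with differences of 0.36 to 0.53 and a highest adjusted p of 0.133 in Car12. With the fluidics run as a block it was 0.40 (adjusted p = 0.0875), and within the 3 runs it was 0.26 to 0.59. Probe set 1447762_x_at gave the fall again, with 6.95, 7.01, 6.57 and 8.10 in zone III, against 83.0, 85.2, 169.6 and 252.1 in zone II (-4.21, adjusted p = 1.21e-06), and its difference of zone II from zone I, 0.36, did not pass (adjusted p = 0.47). Probe set 1446517_at was below the filter.

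Car4, held at the outer cell surface by a lipid anchor, was not tested, since its highest zone mean was 32.5. Probe set 1418094_s_at read 23.1, 19.9, 19.0 and 21.0 in zone I, 26.6, 46.2, 23.3 and 33.9 in zone II, and 21.4, 29.98, 36.7 and 32.5 in zone III. Its values in zones II and III overlapped, and the other Car4 probe set, 1448949_at, had lower means of 3.13, 3.43 and 4.56 in zones I, II and III. In a fit without the filter, none of the Car4 differences passed, at 0.60 for zone II against zone I (limma adjusted p = 0.106), -0.09 for zone III against zone II (adjusted p = 0.839) and 0.52 for zone III against zone I (adjusted p = 0.158).

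Car8 differs from the enzymes above in that it lacks the zinc-binding residues needed for catalysis and is known for binding the inositol trisphosphate receptor, a calcium channel of the endoplasmic reticulum. On probe set 1427482_a_at it read 77.6, 94.3, 71.0 and 108.5 in zone I, 253.2, 232.3, 306.5 and 296.4 in zone II, and 75.5, 108.0, 86.4 and 88.0 in zone III. All zone II arrays lay above all others, and zones III and I overlapped. Car8 averaged 272 ± 35.2 in zone II and 87.8 ± 16.9 in zone I (SD, n = 4 each), a 3.12-fold rise (log2 difference 1.64 ± 0.16 SE, limma adjusted p = 9.64e-06). It averaged 89.5 ± 13.5 in zone III, 3.05-fold below zone II (-1.61 ± 0.16, adjusted p = 4.97e-06), and the difference of zone III from zone I was 0.03 with a 95% interval of -0.32 to 0.39 (adjusted p = 0.887). Within the 3 fluidics runs zone II exceeded zone I by 1.45 to 1.91 on the log2 scale.

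The zone II peak of Car8 rested on 1 probe set. Probe sets 1424958_at and 1457904_at stayed below the filter, with log2 differences of 0.02 and 0.46 in zone II against zone I and of -0.20 and -1.58 in zone III against zone II. Car8 is known from neurons, and of 7 nerve and Schwann markers tested, 3 were higher and 3 lower in zone II than in zone I. Of all genes tested, 16% were higher and 25.4% lower there. Sox10 did not pass there (-0.34, limma adjusted p = 0.3), and Erbb3 did not in zone III against zone II (-0.03, adjusted p = 0.929). The summed signal of the 8 measured was 1886 to 2564 in zone I, 5863 to 6354 in zone II and 809 to 1169 in zone III. Mbp, a myelin protein, averaged 22.5 ± 4.21, 2643 ± 261 and 451 ± 79.8 in zones I, II and III, and S100b, which chondrocytes also make, averaged 1720 ± 325, 2768 ± 105 and 260.5 ± 81.5. Sox10, listed here as a Schwann cell marker, averaged 220 ± 38.9, 175 ± 39.6 and 95.05 ± 32.2 in zones I, II and III. The part of nerve RNA in the Car8 peak was not tested.

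**Figure D3:**
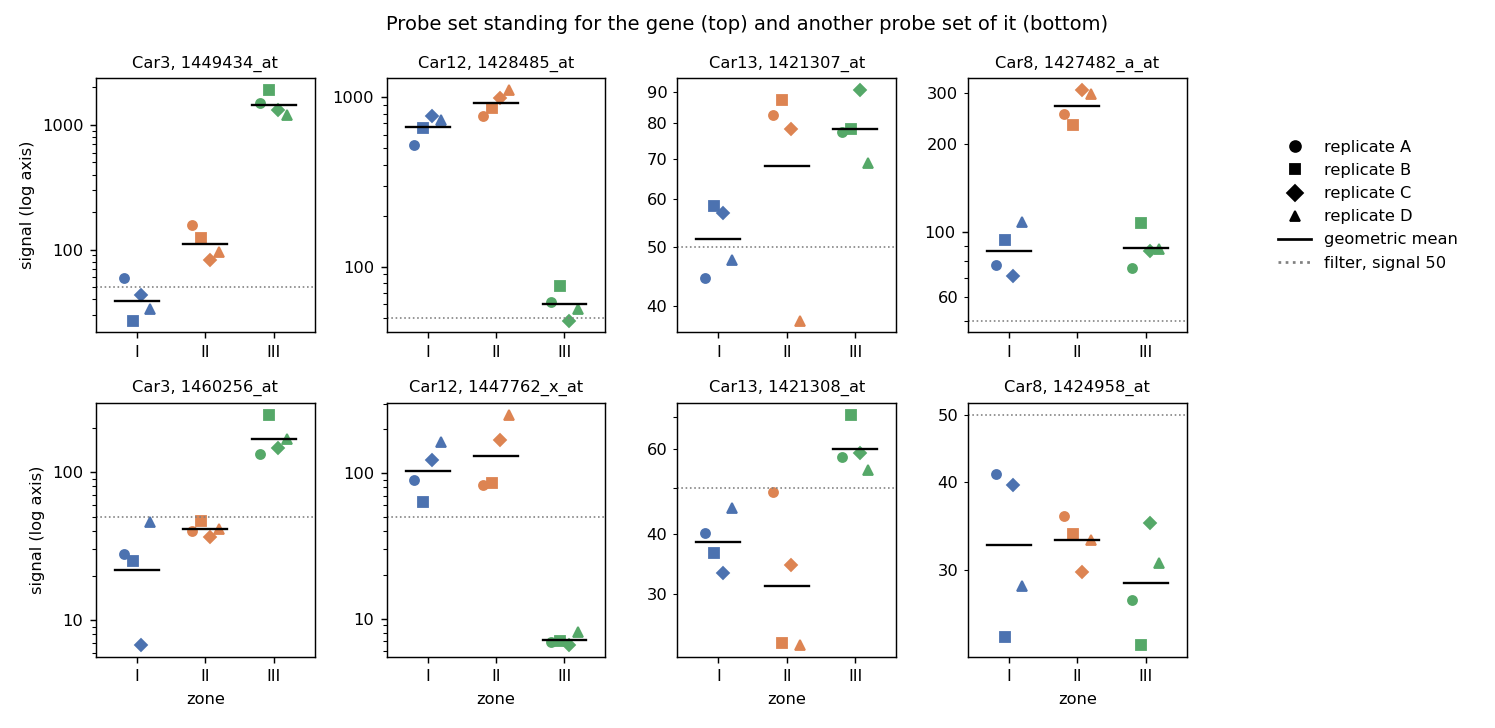
Signal (log axis, scaled to each panel) in zones I, II and III for the probe set standing for Car3, Car12, Car13 and Car8 (top) and another probe set of the same gene (bottom), with a symbol for each replicate array, a bar at the geometric mean and a dotted line at 50. The probe sets of Car3 are both highest in zone III and those of Car12 both lowest there, whereas the zone II peak of Car8 is absent from the second probe set and the Car13 probe sets differ in zone II.

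The other family members added 9 genes, of which 4 passed the filter. Car14, a transmembrane enzyme, read 32.2, 29.5, 42.6 and 32.3 in zone I, 12.3, 11.7, 1.95 and 7.35 in zone II, and 56.5, 56.3, 52.7 and 87.8 in zone III, with no overlap between zones. It was lower in zone II than in zone I (log2 difference -2.33, limma adjusted p = 0.00191) and higher in zone III than in zone II (3.20, adjusted p = 0.000104), and its difference of zone III from zone I, 0.87, did not pass (adjusted p = 0.158). Its zone II signals lay far under 50, and with 16 added to every signal its differences were -1.06 in zone II against zone I (limma adjusted p = 0.00022) and 1.71 in zone III against zone II (adjusted p = 1.27e-06). Car11, which like Car10 lacks catalytic activity, was lower in zone III than in zone I (-0.45, limma adjusted p = 0.0413), a call lost in 10 of 23 alternative analyses, among them leaving out array B or C of zone I, array D of zone II or any array of zone III (-0.49 to -0.37). Car7 and Car10 passed in no comparison, and Car1, Car5a, Car5b, Car6 and Car15 were below the filter.

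The genes of osteoclast acid secretion, the proton pump with its chloride channel and trafficking partners, were read beside Car2. Of 19 tested, 10 were higher and 2 lower in zone III than in zone II, where 30.8% and 22.7% of all genes tested were. The median log2 difference of the 19 was 0.35, and that of all genes 0.08. In zone III against zone I 16 were higher and 0 lower, where 21.6% and 21.7% of all genes were. Atp6v0e (0.18), Atp6v1g1 (0.04) and Atp6ap1 (0.19) did not pass there. The highest were Snx10, a sorting nexin, at 984 ± 124 in zone III and 43.2 ± 7.97 in zone II (SD, n = 4 each, log2 difference 4.52, limma adjusted p = 4.88e-09), and the pump subunit Atp6v0d2, at 927 ± 81.8 in zone III and 45.1 ± 16.3 in zone II (4.42, adjusted p = 2.74e-08). The osteoclast pump subunit Tcirg1 (2.68, adjusted p = 2.39e-08) and the chloride channel Clcn7 (2.55, adjusted p = 1.32e-05) followed. The pump subunits Atp6v0e (-0.46) and Atp6v1g1 (-0.32) fell. Several other subunits of the list had sizeable signals in zone I already, such as Atp6v1e1 (965), Atp6v1a (872) and Atp6v1d (853). The part of osteoclast RNA in the differences of this list was not tested. The call of Atp6v1g1 was lost in 8 of 24 alternative analyses, with no filter, at 0.13 with quantile normalisation, 0.06 with centring on ribosomal protein genes and -0.03 with the median of its probe sets, and at -0.32 to -0.28 without array A or C of zone II or array C or D of zone III. That of Atp6v0e was lost in 2, quantile normalisation (-0.11) and centring on ribosomal protein genes (-0.07). In zone II against zone I, 2 of the 10 osteoclast markers were higher and 2 lower. Of the 19 acid secretion genes, 10 were higher there, led by Atp6v0b at 0.85, and Tcirg1 alone was lower, at -0.56. Of all genes tested, 16% were higher and 25.4% lower there. With centring on ribosomal protein genes the number higher in zone II was 3, and the number higher in zone III than in zone II was 17.

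Of the bicarbonate transporters, 7 of 12 measured passed the filter. Slc4a2, the chloride-bicarbonate exchanger that carries bicarbonate out of osteoclasts, averaged 667 ± 44.3 in zone III and 171.5 ± 29.8 in zone II (SD, n = 4 each, log2 difference 1.97, limma adjusted p = 5.77e-07), and 238 ± 43 in zone I. It was the 1 transporter of the 7 that passed in zone III against zone II, where 30.8% of all genes tested were higher and 22.7% lower. The number of transporters higher there was between 1 and 6 over the alternative analyses. In zone II against zone I Slc4a2 was lower (-0.47, adjusted p = 0.0283), a call lost in 10 of 24 alternative analyses, among them leaving out array B of zone I (-0.35), array B of zone II (-0.37) or array C of zone II (-0.43).

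The proton and lactate transporters moved in both directions. Slc16a7, a monocarboxylate transporter, averaged 593 ± 94.2 in zone III and 73.5 ± 7.20 in zone II (SD, n = 4 each, log2 difference 3.0, limma adjusted p = 3.32e-08), and the endosomal sodium-proton exchanger Slc9a9 was also higher in zone III (2.99, adjusted p = 3.91e-06). Slc16a3, the lactate exporter of glycolytic cells, averaged 87.8 ± 21.1 in zone III and 445 ± 31.7 in zone II (-2.37, adjusted p = 2.31e-06). Slc16a1 (-1.56, adjusted p = 2.99e-06) and Bsg (-0.67, adjusted p = 0.000215), the chaperone of these carriers, fell as well. Slc9a2, the remaining gene of the 6 tested, did not pass (0.92, adjusted p = 0.277). Thus 2 of the 6 were higher and 3 lower, where 30.8% and 22.7% of all genes tested were. In zone II against zone I, Slc9a2, Slc16a3, Slc16a1 and Bsg were higher and Slc9a9 was lower, and Slc16a7 did not pass (0.08). Of all genes, 16% were higher and 25.4% lower there. The means of Slc9a2 (8.21 and 39.4) and Slc9a9 (28.2 and 13.5) in zones I and II lay under 50, near background. Both genes passed the filter through zone III alone, at 74.7 and 102. Bsg did not pass between zones III and I (-0.20).

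Car9 and Car12 were also read beside 23 hypoxia genes. In zone II against zone I, 10 of them were higher and 3 lower, where 16% and 25.4% of all genes tested were. The median log2 difference of the hypoxia genes was 0.32 and that of all genes -0.09, while Car9 fell by 2.32 on the log2 scale. The glucose transporter Slc2a1 averaged 3082 ± 174 in zone II and 1179 ± 143 in zone I (SD, n = 4 each, log2 difference 1.39, limma adjusted p = 2.57e-06), followed by P4ha2 (0.73), Pfkfb4 (0.71) and Bnip3 (0.67), and Egln3 (-0.98), Kdm3a (-0.50) and Hif1a (-0.37) were lower, the calls of Kdm3a and Hif1a being lost in 8 and 10 of 24 alternative analyses. Among these were leaving out array B or D of zone I or array B of zone II for both, array A of zone II for Kdm3a (-0.48 to -0.41) and array D of zone II for Hif1a (-0.34 to -0.32). In zone III against zone II, 7 of the 23 were higher and 12 lower, where 30.8% and 22.7% of all genes were. Epas1, which codes for a hypoxia-inducible factor subunit common in endothelium, rose most (2.25, adjusted p = 1.01e-06), followed by Vegfa (1.22), Adm (1.17) and Mxi1 (0.94). P4ha2 (-1.62), Slc2a1 (-1.52), Higd1a (-1.39) and Bnip3 (-1.37) were lower. In zone III against zone I, 6 of the 23 rose and 6 fell, where 21.6% and 21.7% of all genes did. The number higher in zone II than in zone I was between 4 and 10 over the alternative analyses.

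**Figure D4:**
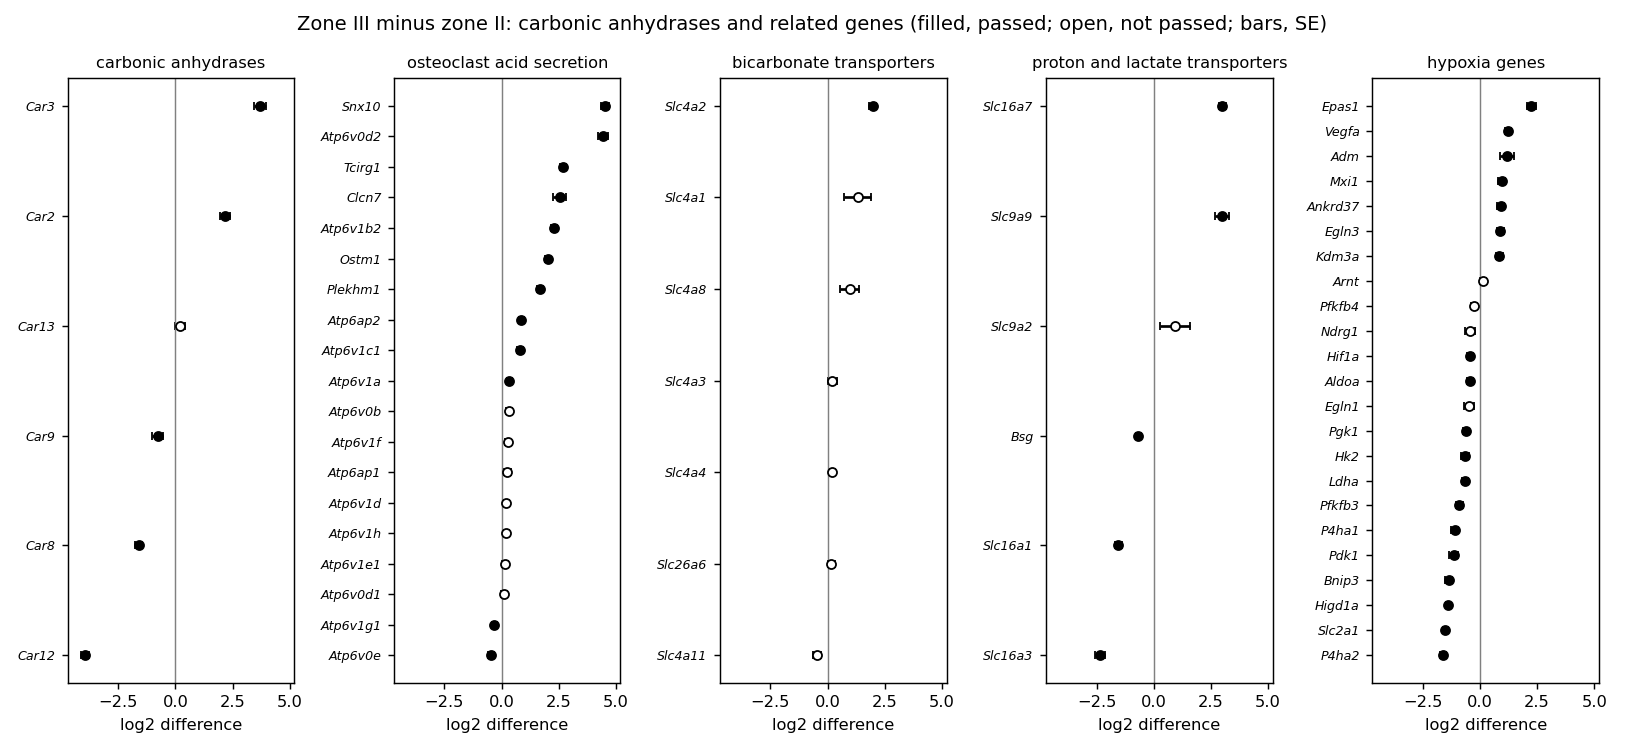
Log2 difference of zone III minus zone II (points, with bars for the SE) for the tested carbonic anhydrases, osteoclast acid secretion genes, bicarbonate transporters, proton and lactate transporters and hypoxia genes, filled where the adjusted p was under 0.05. Car3 and Car2 lie to the right as do Snx10, Atp6v0d2, Slc4a2 and Slc16a7, and Car12 lies to the left as do Slc16a3 and Slc2a1.

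The genes whose log2 signals were most like those of each member over the 12 arrays were named by Pearson correlation, as a description, since the points share zones. For Car2 they were H2-K1, Frrs1 and Sema4d (r = 0.99 each), and for Car3 they were Prr5l, Phex and Ccl9 (r = 0.99 each). Phex averaged 18.5, 95.1 and 1808 in zones I, II and III, and Ccl9 averaged 41.7, 82.5 and 1451. Those of Car8 were Ehd3, Nim1k and Ppfibp1 (r = 0.98, 0.97 and 0.97), and Nim1k averaged 99.3, 608 and 91.0 in zones I, II and III. Car9 was most like Scube2, Crispld2 and Vwc2 (r = 0.98 each), all highest in zone I, with Vwc2 at 893, 184 and 110.0 in zones I, II and III. Car12 was most like Sytl2, Nucb2 and Lmcd1 (r = 0.99 each), and Lmcd1 averaged 285, 390.3 and 23.1 in zones I, II and III. The nearest genes to Car13, Banf2, Memo1 and Cacna1f, reached r = 0.84, 0.82 and 0.81.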

How the data were processed

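Expression was measured on 12 Affymetrix arrays of E15.5 mouse tibia, 4 for each of 3 zones. The authors deposited 1 linear signal intensity per probe set and array, and every array had a 2% trimmed mean of about 150. The submitters' processing notes name RMA and the methods of the study also name GC-RMA in GeneSpring. Both give arrays of equal distribution, whereas these signals were linear with unequal medians, so which procedure made them was not settled. Such common scaling sets each level relative to the whole array, so that a zone rich in a few transcripts lowers the others.

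Of 45101 probe sets, 34945 had 1 gene symbol in the platform annotation, 932 had several and 9160 had none, and 64 were controls and were left out. Log2 signals of probe sets whose mean reached 50 in 1 or more zones (22255) were fitted over all 12 arrays with limma 3.58.1 in R 4.3.3, zone as the factor, and called at a Benjamini-Hochberg adjusted p under 0.05. Differences are the later minus the earlier zone. The letters were checked as pairs by correlating the deviations of same-letter arrays from their zone means. Between zones III and I every correlation was over 0.1 (0.142 to 0.190). Between zones III and II (-0.031 to 0.216) letter B alone was lower, and between zones II and I they ran from -0.128 to 0.257. These correlations cannot settle whether letters mark litters, since a pairing by litter would hold for all 3 zones at once. The main fit left arrays unpaired in every comparison, and the replicate block was an alternative. The fit was tested on simulated data. Named were all members, the other family members, up to 4 called genes per list, direction and comparison with the largest differences, any gene of a list that does not pass where 3 or fewer do not, and the 3 genes most correlated with each member. The members and lists were chosen with earlier results of these data known. Tried as alternatives were filters, scalings, blocks, weights, summaries of probe sets and leaving out each array. Gene order comes from the RefSeq assembly GRCm38.p6.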

Additional observations from a re-analysis of the deposited data

How the results depend on the processing

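The counts of carbonic anhydrases higher and lower in each comparison kept within 1.5 times their values, but for counts this small that bound can hide a change of 1 gene. Car12 in zone II minus zone I lost its call in 16 of 24 alternative analyses, and Car9 in zone III minus zone II in 2 of 24. Car13 in zone III minus zone I gained a call in 8 of 23. Over the 7 genes, 394 of 432 alternative values kept their direction and side of the threshold, 18 no longer passed, 11 newly passed and 9 turned their sign. Each sign that turned among the 7 genes belonged to a comparison that did not pass. Car8 in zone III minus zone I was -0.059 with quantile normalisation, -0.061 with centring on the array median and -0.017 where fluidics runs were blocked, and leaving out an array put it between -0.061 and 0.143, below 0 without zone I replicate A (-0.018), zone I replicate C (-0.061) or zone III replicate B (-0.060). Car13 in zone III minus zone II was -0.068 with quantile normalisation and -0.021 with centring on the array median, and leaving out an array put it between -0.076 (without zone II replicate D) and 0.327. Outside the 7 genes, Atp6v1g1 in zone III minus zone II, a comparison that passed at -0.32, was 0.133 with quantile normalisation and 0.061 with centring on ribosomal protein genes. The cause was not tested. Centring on ribosomal protein genes shifted the median log2 difference of all genes by -0.25, 0.38 and 0.14 in zone II minus zone I, zone III minus zone II and zone III minus zone I, centring on the array median by 0.13, -0.23 and -0.10, and quantile normalisation by 0.07, -0.11 and -0.02. Of the arrays of zones III and I, III and II, and II and I, 4, 3 and 1 of 4 letters correlated best with themselves. With a replicate block, Car12 in zone II minus zone I remained 0.48 with a limma adjusted p of 0.057, Car13 in zone III minus zone I was 0.61 and passed (adjusted p = 0.0294), no other call of a member changed, and 8576, 11325 and 9134 probe sets were called in place of 8314, 11008 and 8891. The alternatives for the lists and for genes other than the members were chosen after seeing the data. Signals under 50 lie near background, which limits Car4, Car13 and the second Car8 probe sets, and likewise Car3 in zone I (mean 40.7), Car9 in zone III (39.9) and Car14 in zones I and II (34.1 and 8.32). The same holds for Slc9a2 (8.21 and 39.4) and Slc9a9 (28.2 and 13.5) in zones I and II.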
